A study of Mus musculus with 12 samples.

Results

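The genes described here encode proteins with which lymphocytes kill other cells, and receptors first known from natural killer (NK) cells. There are 10 of them among the 45777 genes of the table: the granzymes Gzma, Gzmb, Gzmc and Gzmk, the pore-forming protein Prf1, the granule membrane protein Nkg7, and the receptors Klrd1, Klrk1, Klrb1c and Ncr1. They were picked by gene symbol, and all 10 symbols were found. RNA came from CD4+ T cells that had been isolated with magnetic CD4 beads from spleens of wild-type C57BL/6 mice, given as 7 weeks old in the sample labels. Every culture, controls included, received anti-CD3 at 0.5 µg/ml and lasted 3 days, and the study's methods also list soluble anti-CD28 for T cell activation. The 4 groups, with 3 samples each, were cells given no drug (Control), metformin (an antidiabetic drug), FK506 (tacrolimus, which blocks the phosphatase calcineurin) or the combination (Metformin+FK506). Drug doses for these cultures are not given in the sources used here. The labels do not say that the 3 samples of a group came from separate animals or cultures, so the p-values measure only the spread between these samples, which may be technical.

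Cytotoxic granules are secretory lysosomes. On contact with a target cell their perforin opens the membrane of the target and lets granzymes, a family of serine proteases, enter and start cell death. CD8 T cells and NK cells are best known for this program, and activated CD4+ T cells can also carry granzyme B. Many NK receptors belong to the C-type lectin-like Klr family: CD94 (Klrd1) pairs with NKG2 chains, NKG2D (Klrk1) binds stress-induced ligands, and NK1.1 (Klrb1c) and NKp46 (Ncr1) are markers of NK cells in C57BL/6 mice.

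In the GRCm38.p6 assembly of RefSeq (the same assembly as mm10), the granzymes lie in clusters. Gzma (chr13:113093824-113100981, minus strand) and Gzmk (chr13:113171630-113180965, minus strand) are 70.6 kb apart on chromosome 13, and Gzmb (chr14:56258836-56262334, minus strand) and Gzmc (chr14:56231397-56241647, minus strand) are 17.2 kb apart on chromosome 14. Prf1 lies at chr10:61297751-61304684 (plus strand), Nkg7 at chr7:43437138-43438246 (plus strand) and Ncr1 at chr7:4337715-4345184 (plus strand). Klrb1c (chr6:128778485-128788641, minus strand), Klrd1 (chr6:129588092-129598775, plus strand) and Klrk1 (chr6:129610323-129623903, minus strand) belong to the NK gene complex on chromosome 6, with Klrd1 and Klrk1 11.5 kb apart. The annotation places Gzmk over the gene Esm1 on the other strand, and Klrb1c over Gm44511 on the same strand. Of the transcript stretches of 100 bases in Klrb1c, 10.8% were shared with Gm44511 or Klrb1a, so its reads could be split between these genes, and none of the other 9 genes shared such a stretch with another gene.

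The 250 bases before the start site are shown for 4 of these genes, the neighbours Gzma and Gzmk, which went in opposite directions with FK506, and Gzmb and Nkg7, which had the highest levels in Control and with metformin. The sequences are from RefSeq on GRCm38.p6, 5′ to 3′ on the strand of the gene. They cover chr13:113100982-113101231 (minus strand) for Gzma, chr13:113180966-113181215 (minus strand) for Gzmk, chr14:56262335-56262584 (minus strand) for Gzmb and chr7:43436888-43437137 (plus strand) for Nkg7. Capitals mark matches, on either strand, to short motifs of factors known from T cell activation and cytotoxic lymphocytes: GGAAA (the core bound by NFAT, the factor that calcineurin activates), GGTGTGA (bound by T-box factors), TGTGGT (RUNX), TGANTCA (AP-1) and TTCNNNGAA (STAT).
Gzma: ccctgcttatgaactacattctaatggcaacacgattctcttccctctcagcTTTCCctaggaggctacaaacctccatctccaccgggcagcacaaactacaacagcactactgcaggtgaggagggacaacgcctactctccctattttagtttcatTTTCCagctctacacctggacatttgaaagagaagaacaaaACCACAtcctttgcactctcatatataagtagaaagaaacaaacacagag
Gzmk: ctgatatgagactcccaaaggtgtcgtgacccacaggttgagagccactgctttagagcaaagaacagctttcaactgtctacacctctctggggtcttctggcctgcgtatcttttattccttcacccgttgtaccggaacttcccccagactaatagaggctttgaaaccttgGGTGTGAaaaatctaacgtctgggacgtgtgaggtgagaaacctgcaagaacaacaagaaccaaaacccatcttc
Gzmb: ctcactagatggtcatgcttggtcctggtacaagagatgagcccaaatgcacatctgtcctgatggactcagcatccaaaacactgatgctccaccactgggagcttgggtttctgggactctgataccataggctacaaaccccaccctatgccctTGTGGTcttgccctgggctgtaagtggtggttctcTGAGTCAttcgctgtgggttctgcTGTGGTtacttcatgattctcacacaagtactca
Nkg7: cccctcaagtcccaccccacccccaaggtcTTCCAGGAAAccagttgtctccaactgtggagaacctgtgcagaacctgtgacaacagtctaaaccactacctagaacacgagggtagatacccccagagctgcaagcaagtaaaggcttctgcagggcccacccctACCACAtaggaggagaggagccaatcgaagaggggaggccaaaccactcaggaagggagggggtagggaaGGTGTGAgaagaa
Of the 10 genes, 9 had a start site in the promoter table (Klrd1 did not, and the first of the start sites of Ncr1 was used). The RUNX letters stood in 8 of the 9 windows, all but that of Gzmk, against 14% of 32851 windows of all genes. The T-box letters stood in Gzmk and Nkg7 (2 of 9, against 3.33% of all windows) and the AP-1 letters only in Gzmb (1 of 9, against 6.75%). The NFAT core stood in Gzma, Nkg7 and Klrb1c (3 of 9, against 55.6%), and the STAT letters only in Nkg7 (1 of 9, against 7.02%), where they overlap the NFAT core. A match says only that these letters are in the window.

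Levels are given as FPKM, sequenced fragments divided by transcript length and by the size of the library, which allow genes to be compared with each other. Differences between groups are log2 fold changes of the read counts, fitted with edgeR's quasi-likelihood test over the 15197 genes that reached an FPKM of 0.5 in 3 or more samples, each with its standard error (SE). A gene was said to have risen or fallen where its p-value, adjusted over all genes tested by the Benjamini-Hochberg method, was under 0.05. Of the 10 genes, 8 passed this filter. Ncr1 and Klrb1c did not, Gzmk passed only through the FK506 and Metformin+FK506 samples, and Gzma reached the minimum in all samples only in Control and Metformin.

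**Figure D1:**
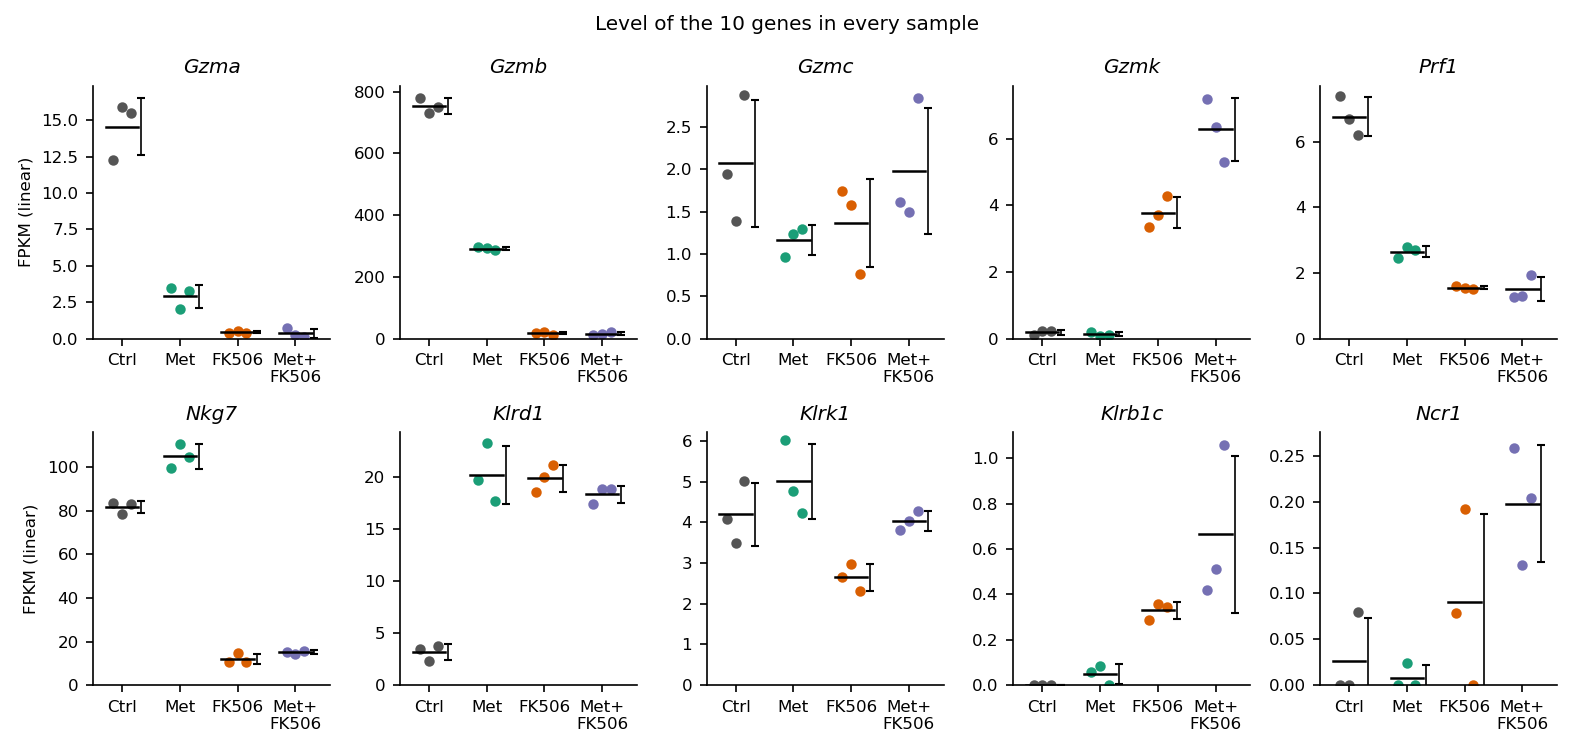
FPKM (linear axes starting at 0, 1 scale per gene) of the 10 genes in the 12 samples of the 4 groups; points are samples, bars the mean and whiskers the SD (n = 3). Gzmb stands at 730 to 780 in Control and at 13.0 to 20.6 with FK506, whereas Gzmk stands at 0.102 to 0.226 and at 3.35 to 4.27.

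Granzyme B (Gzmb), the protease that cleaves caspases in target cells, was by far the most abundant of the 10 transcripts in Control. It stood at 780, 730 and 750 FPKM in the 3 Control samples, 296, 292 and 287 with metformin, 18, 20.6 and 13 with FK506, and 11.5, 14.6 and 22 with the combination. The FK506 and Metformin+FK506 samples overlapped each other and lay far below those of the other groups, which did not overlap. Compared with Control, Gzmb fell 50.6-fold with FK506 (log2 fold change -5.66 ± 0.18, adjusted p = 2.78e-14), 54.1-fold with the combination (-5.76 ± 0.18, adjusted p = 2.5e-14) and 2.64-fold with metformin (-1.40 ± 0.15, adjusted p = 4.83e-07). The combination and FK506 alone did not differ beyond the spread (-0.10 ± 0.17, 95% interval -0.46 to 0.26, adjusted p = 0.709), but without Metformin+FK506 replicate 3, the highest of its group, the difference was -0.38 and passed the test (adjusted p = 0.0491). The reads behind these values numbered 62277 to 70341 in a Control sample and 968 to 1985 in a sample with FK506.

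Granzyme A (Gzma), a tryptase of the same granules, went the same way at a far lower level. Its FPKM values were 12.3, 15.9 and 15.5 in Control, 3.44, 2.01 and 3.27 with metformin, 0.377, 0.497 and 0.377 with FK506, and 0.708, 0.253 and 0.0966 with the combination. Control and metformin samples did not overlap with each other or with the FK506-containing groups, while FK506 and Metformin+FK506 samples did. Gzma fell with FK506 (-5.31 ± 0.33, adjusted p = 2.38e-10), with the combination (-5.48 ± 0.34, adjusted p = 2.07e-10) and with metformin (-2.35 ± 0.27, adjusted p = 1.37e-06). Between the combination and FK506 the interval was wide (-1.10 to 0.77), with 5 to 35 reads in the Metformin+FK506 samples. Leaving out Metformin+FK506 replicate 1, the highest of its group, took this difference from -0.16 to -0.99, and without replicate 3 it was 0.17. Without replicate 1 the change of the combination from Control was -6.30, and with limma on log2(FPKM + 1), which shrinks changes of low genes, the changes from Control were -3.45 with FK506 and -3.54 with the combination.

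Granzyme K (Gzmk), the neighbour of Gzma and likewise a tryptase, rose where Gzma fell. It was close to 0 in Control (0.102, 0.226 and 0.218 FPKM, from 6 to 16 reads) and with metformin (0.206, 0.0811 and 0.102), stood at 3.35, 3.72 and 4.27 with FK506, and was highest with the combination (7.19, 6.36 and 5.31). Each Metformin+FK506 sample lay above each FK506 sample, and both groups lay above all samples without FK506. Compared with Control, Gzmk rose by a log2 fold change of 4.08 ± 0.28 with FK506 (adjusted p = 6.44e-10) and 4.85 ± 0.27 with the combination (adjusted p = 6.01e-11), and the difference between the combination and FK506 was 0.76 ± 0.20 (adjusted p = 0.00875). With metformin alone the fitted change was -0.52 ± 0.40, within the spread (adjusted p = 0.295). It passed the test in no fit, and ran from -0.95 without Metformin replicate 1 to -0.065 on log2(FPKM + 1). On quantile-normalized FPKM values the rises were smaller, 1.66 with FK506 and 2.33 with the combination. Gzmk stood to Gzma in FPKM at a ratio of 0.0122 ± 0.00336 (SD, n = 3) in Control, 0.0438 ± 0.0147 with metformin, 9.22 ± 1.94 with FK506 and 30.1 ± 22.8 for the combination.

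Granzyme C (Gzmc), a protease of the cluster on chromosome 14, was low in every group. Its values were 1.94, 1.39 and 2.88 FPKM in Control, 0.959, 1.24 and 1.29 with metformin, 1.75, 1.58 and 0.768 with FK506, and 1.61, 1.49 and 2.84 with the combination. Control overlapped with FK506 and with the combination but not with metformin. Gzmc fell by 0.82 on the log2 scale with FK506 (SE 0.32, adjusted p = 0.0286) and by 0.82 with metformin (SE 0.33, adjusted p = 0.0442), and its change with the combination was -0.31 ± 0.32 (adjusted p = 0.375). Neither call was stable. Without Control replicate 3 the values were -0.49 and -0.49 and neither passed the test. With all samples kept, the fall with metformin missed the threshold with library totals only (adjusted p = 0.0517), on the 3 FPKM scales fitted with limma (0.0607 to 0.0837), with no filter on low values (0.0644) and with the replicate number as a block (0.0643), and the fall with FK506 with library totals only (adjusted p = 0.0978), 2 of the FPKM scales (0.122 and 0.123), scaling to a set of T cell markers (0.0656) and the block (0.0548).

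The make-up of the granzyme transcripts therefore differed between the groups. Gzmb made up 97.8% ± 0.337 (SD, n = 3) of the summed FPKM of the 4 granzymes in Control, 98.6% ± 0.256 with metformin, 75.1% ± 3.93 with FK506 and 63.9% ± 8.99 for the combination. The share of Gzmk was 0.0238% ± 0.00953, 0.0437% ± 0.0219, 17.2% ± 5.17 and 26.6% ± 8.41 in the same order. The FK506 and Metformin+FK506 samples overlapped in both shares.

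**Figure D2:**
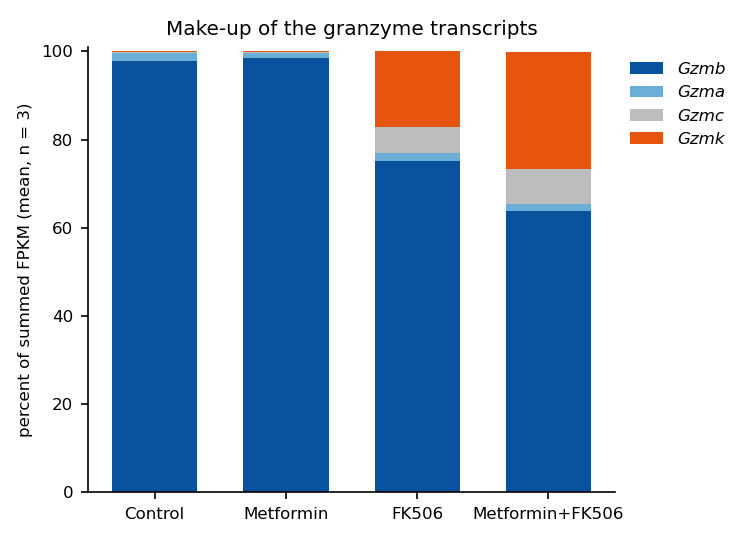
Mean percent (vertical axis, 0 to 100) of the summed FPKM of the 4 granzymes that each of them made up in each of the 4 groups (n = 3 per group). Gzmb fills nearly the whole bar in Control (97.8%) and with metformin (98.6%), and Gzmk takes 17.2% with FK506 and 26.6% with the combination.

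Perforin (Prf1), the protein that opens the target membrane, fell with either drug. It stood at 7.38, 6.70 and 6.20 FPKM in Control, 2.46, 2.78 and 2.70 with metformin, 1.60, 1.54 and 1.52 with FK506, and 1.27, 1.31 and 1.92 with the combination. All Control samples lay above all metformin samples, which lay above all samples with FK506. The fall was 4.95-fold with FK506 (-2.31 ± 0.14, adjusted p = 1.45e-10), 5-fold with the combination (-2.32 ± 0.14, adjusted p = 1.38e-10) and 2.54-fold with metformin (-1.34 ± 0.13, adjusted p = 2.83e-07). On log2(FPKM + 1) the changes with FK506 and the combination were -1.60 and -1.64. The combination and FK506 were not distinguishable (95% interval -0.32 to 0.29). Because Gzmb fell further than Prf1 with FK506, Gzmb exceeded Prf1 in FPKM by a ratio of 112 ± 8.01 (SD, n = 3) in Control and 111 ± 8.62 with metformin, but of 11.1 ± 2.39 with FK506 and 10.6 ± 1.30 for the combination.

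Nkg7, a granule membrane protein that takes part in the release of granules, separated the drugs. It was at 83.7, 78.5 and 83.2 FPKM in Control, 99.6, 111 and 105 with metformin, 10.6, 14.5 and 10.7 with FK506, and 15.4, 14.1 and 15.8 with the combination. Every metformin sample lay above every Control sample, and every sample with FK506 lay far below both. Nkg7 rose 1.26-fold with metformin (0.33 ± 0.078, adjusted p = 0.00172) and fell 7.94-fold with FK506 (-2.99 ± 0.09, adjusted p = 1.62e-14) and 6.19-fold with the combination (-2.63 ± 0.088, adjusted p = 6.2e-14). It was higher with the combination than with FK506 (0.36 ± 0.096, adjusted p = 0.0096), although 1 FK506 sample lay within the range of the combination. This call was lost without FK506 replicate 1 (0.26, adjusted p = 0.0705) or FK506 replicate 3 (0.28, adjusted p = 0.0547), with only the 2 groups compared in the fit (adjusted p = 0.063), and when scaled to the T cell markers (0.21, adjusted p = 0.0873).

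Among the receptors, Klrd1 (CD94, the common chain of the CD94/NKG2 receptors) rose with either drug to about the same level. Its values were 3.44, 2.26 and 3.73 FPKM in Control, 19.7, 23.2 and 17.7 with metformin, 18.5, 20 and 21.1 with FK506, and 17.4, 18.8 and 18.8 with the combination. The 3 drug groups overlapped, and every one of their samples lay above every Control sample. The rise was 6.19-fold with metformin (2.63 ± 0.15, adjusted p = 2.93e-10), 5.41-fold with FK506 (2.44 ± 0.15, adjusted p = 1.56e-10) and 4.91-fold with the combination (2.30 ± 0.15, adjusted p = 3.38e-10). The combination did not differ from FK506 beyond the spread (-0.14 ± 0.13, 95% interval -0.42 to 0.13), and the small difference from metformin (-0.33 ± 0.13, adjusted p = 0.0272) was lost with library totals only (-0.15, adjusted p = 0.29), on the 3 FPKM scales (adjusted p from 0.0879 to 0.447), with the T cell scaling (-0.23, adjusted p = 0.104) and without Metformin replicate 2 (-0.21, adjusted p = 0.169) or Metformin+FK506 replicate 1 or 2 (-0.31 and -0.34).

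Klrk1 (NKG2D, an activating receptor) changed little. It stood at 4.09, 3.48 and 5.01 FPKM in Control, 6.02, 4.77 and 4.22 with metformin, 2.66, 2.97 and 2.30 with FK506, and 3.8, 4.02 and 4.28 with the combination. The FK506 samples lay below all others, and the other 3 groups overlapped. The fitted changes from Control were a fall of 1.38-fold with FK506 (-0.46 ± 0.093, adjusted p = 0.000246), a rise of 1.29-fold with metformin (0.37 ± 0.091, adjusted p = 0.00262) and 0.15 ± 0.091 with the combination (adjusted p = 0.135), and the combination lay above FK506 (0.61 ± 0.092, adjusted p = 9.29e-05). The fall with FK506 passed the test in every fit, but its size ran from -0.24 with library totals only to -0.83 after quantile normalization. The rise with metformin passed the test in the fits on counts but in none of the 3 limma fits on FPKM (0.21, 0.25 and 0.16, adjusted p = 0.181, 0.192 and 0.307). For the combination against Control the direction differed between fits on counts and on FPKM. It was positive in every fit on counts, up to 0.37 with library totals only (adjusted p = 0.00131), and negative in the limma fits on FPKM, at -0.036, -0.042 and, after quantile normalization, -0.30 (adjusted p = 0.0408). The ratio of Klrd1 to Klrk1 FPKM was 0.745 ± 0.0967 (SD, n = 3) in Control, 4.11 ± 0.795 with metformin, 7.61 ± 1.35 with FK506 and 4.55 ± 0.148 for the combination.

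The 2 markers of NK cells were close to the limit of detection. Klrb1c (NK1.1) had no read in the 3 Control samples and 9, 13 and 0 reads with metformin, but 52, 61 and 46 with FK506 and 62, 97 and 132 with the combination. In FPKM these were 0.285, 0.356 and 0.345 with FK506 and 0.419, 0.512 and 1.06 with the combination, with no overlap between them or with the other groups. Taking 3 counts per library as the limit that a count of 0 allows, Klrb1c was at least 14.7-fold higher with FK506 and at least 29.8-fold higher with the combination than in Control. A two-sided exact permutation test gave p = 0.1 for each of these comparisons and for the combination against FK506, the smallest value that 3 samples against 3 can give. With no filter on low values all 10 genes were tested. The count fit then called 3 rises in place of 2 with FK506 and with the combination, the added one being Klrb1c or Ncr1. Of 27636 genes, 7577 and 7565 rose. For the combination against FK506 that fit called 3 rises, as with the filter, beside 1884 of all genes. Ncr1 (NKp46) had 0, 0 and 8 reads in Control, 0, 2 and 0 with metformin, 9, 18 and 0 with FK506, and 21, 14 and 14 with the combination. With 3 counts put in for each metformin library, the combination was 5-fold higher than metformin. This is no strict bound, because 1 metformin library had 2 reads. The bounds for Klrb1c cover counting error only.

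Counted over the genes tested, FK506 alone raised 2 of the 8 (Gzmk and Klrd1) and lowered 6 (Gzma, Gzmb, Gzmc, Prf1, Nkg7 and Klrk1). Among all genes tested, 41.3% rose and 39.6% fell in this comparison. Gzmk was under the minimum FPKM in all Control samples and was tested only through the groups with FK506, where it was high. The combination raised the same 2 and lowered 4 of these 6 (all but Gzmc and Klrk1), beside 42.1% and 39.6% of all genes. Metformin raised 3 (Nkg7, Klrd1 and Klrk1) and lowered 4 (Gzma, Gzmb, Gzmc and Prf1), beside 28.6% and 27.4% of all genes, with Klrk1 and Gzmc not called on the FPKM scales. These 3 comparisons share the Control samples, and with such backgrounds the counts alone do not set the group apart. For the size of single changes, the lower and upper quartiles of all genes tested were -0.66 and 0.74 on the log2 scale with FK506 and -0.28 and 0.32 with metformin.

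Whether metformin added to FK506 was asked by comparing the combination with FK506 alone. Gzmk, Klrk1 and Nkg7 rose (3 of 8, beside 15.6% of all genes tested that rose and 15% that fell), and the other 5 did not pass the test. With the T cell scaling only 15.9% of the changed genes of this comparison were higher, against 50.9% in the fit used here, and Gzmk (0.61) and Klrk1 (0.46) still rose. Compared with metformin alone, the combination raised Gzmk (5.36 ± 0.29, adjusted p = 4.03e-11) and lowered Gzma (-3.12 ± 0.35), Gzmb (-4.36 ± 0.17), Prf1 (-0.98 ± 0.14), Nkg7 (-2.96 ± 0.089), Klrd1 and Klrk1 (-0.22 ± 0.09, adjusted p = 0.0389), beside 40.3% of all genes higher and 37.9% lower. Gzma was at -3.94 without Metformin+FK506 replicate 1 and at -1.53 on log2(FPKM + 1). Prf1 was at -0.55 on log2(FPKM + 1), and Gzmk was at 2.40 after quantile normalization. The Klrk1 call was lost with library totals only (-0.034, adjusted p = 0.736), on log2(FPKM + 1) and log2(FPKM + 0.1) (adjusted p = 0.0876 and 0.0987), with a minimum mean FPKM of 1 (0.0587), with the T cell scaling (0.249), and without any 1 of the Metformin replicates, Metformin+FK506 replicate 1 or 2, or FK506 replicate 1 (-0.16 to -0.23).

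**Figure D3:**
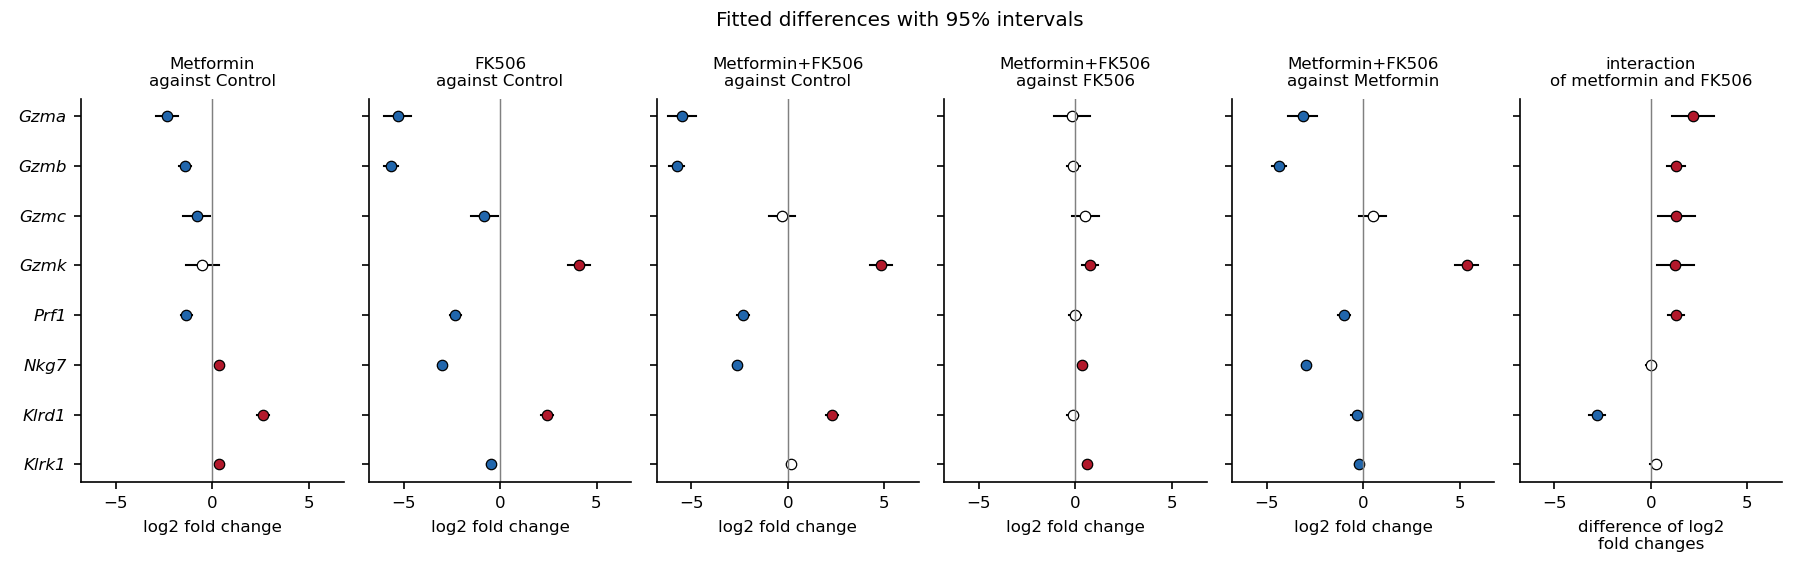
Log2 fold change (horizontal axis) with 95% interval of the 8 genes tested in the 5 comparisons of groups, and the difference of 2 log2 fold changes for the interaction; red and blue points passed the test as higher or lower, open points did not. Against Control, Gzmb and Gzma lie between -5.31 and -5.76 with FK506 and the combination while Gzmk lies at 4.08 and 4.85, and against FK506 they lie between -0.16 and 0.76, with Gzmk, Klrk1 and Nkg7 passing the test.

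The interaction of the drugs, the effect of metformin with FK506 minus its effect without, passed the test in 6 of the 8 genes, 5 of them positive and 1 negative, beside 22.5% and 24% of all genes. Metformin alone lowered Gzmb by 1.40, Gzma by 2.35 and Prf1 by 1.34 on the log2 scale, and its effect in the presence of FK506 was -0.10, -0.16 and -0.016, which gave interactions of 1.30 ± 0.22 (adjusted p = 0.000152), 2.19 ± 0.52 (adjusted p = 0.00263) and 1.33 ± 0.20 (adjusted p = 3.74e-05). That of Gzma was 1.37 without Metformin+FK506 replicate 1 (adjusted p = 0.0409). For Klrd1 the rise of 2.63 with metformin became -0.14 with FK506, an interaction of -2.77 ± 0.20 (adjusted p = 8.76e-09). Those of Gzmc (1.33 ± 0.46, adjusted p = 0.0273) and Gzmk (1.28 ± 0.45, adjusted p = 0.0291) were lost when single samples were left out, for example Control replicate 3 (1.00 and 1.15). On log2(FPKM + 1) these 2 interactions passed the test but were smaller, at 0.81 and 0.67. For Nkg7 metformin raised the level by about as much with FK506 (0.36) as without (0.33), and the interaction was 0.026 ± 0.12 (95% interval -0.24 to 0.29).

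Of the other granzymes of the mouse, only Gzmm was tested. This protease was at 0.200 ± 0.0332 FPKM (SD, n = 3) in Control, 0.335 ± 0.136 with metformin, 1.01 ± 0.0385 with FK506 and 1.12 ± 0.163 for the combination, and rose by 1.98 ± 0.32 with FK506 and 2.2 ± 0.32 with the combination. Like Gzmk, it reached the minimum FPKM only in samples with FK506 and so passed the filter only through the groups where it was high. With metformin it rose by 0.88 ± 0.33 (adjusted p = 0.0339), a call lost on the 3 FPKM scales, with no filter, with only the 2 groups in the fit, with the T cell scaling, and without Metformin replicate 2 (0.47) or Control replicate 1 or 2 (0.66 and 0.98). Gzmd, Gzme, Gzmf, Gzmg and Gzmn had at most 13 reads in any sample.

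Genes for processing, storing and releasing granules went both ways. Of 13 measured, 5 rose and 7 fell with FK506 (median log2 fold change -0.12, against 0.024 over all genes tested), 6 rose and 5 fell with metformin (median 0.11, against 0.011), and 4 rose and 7 fell with the combination (median -0.10, against 0.033). Of all genes tested, 41.3% rose and 39.6% fell with FK506, 28.6% and 27.4% with metformin, and 42.1% and 39.6% with the combination. Serglycin (Srgn), the proteoglycan on which granzymes are stored, fell by 1.49 with FK506, 0.96 with metformin and 1.61 with the combination. Cystatin F (Cst7), an inhibitor of granule cathepsins, fell by 2.77 with FK506 and 2.42 with the combination, beside 0.33 with metformin. Cathepsin C (Ctsc), which activates granzymes by trimming their N terminus, rose by 1.48 ± 0.035 with FK506 and 1.25 ± 0.035 with the combination, as did the lysosomal membrane protein Lamp1 (1.54 and 1.47). Cathepsin W (Ctsw), a protease of cytotoxic lymphocytes, had the directions of Nkg7: it rose with metformin (1.02 ± 0.099) and fell with FK506 (-1.89 ± 0.11).

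The inhibitor of granzyme B, Serpinb9, which protects cells that carry the protease, rose where Gzmb fell in both groups with FK506, and fell with it with metformin. It rose by 1.73 ± 0.042 with FK506 and by 0.78 ± 0.042 with the combination, and fell by 0.26 with metformin. The ratio of Gzmb to Serpinb9 FPKM was 28.2 ± 1.70 (SD, n = 3) in Control, 12.7 ± 0.718 with metformin, 0.155 ± 0.0339 with FK506 and 0.286 ± 0.0845 for the combination. Other leukocytes also express Serpinb9, Ctsc and Lamp1.

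Of the partners of Klrd1, Klrc1 (NKG2A), the inhibitory partner, went from 1.49 ± 0.149 FPKM (SD, n = 3) in Control to 5.66 ± 0.283 with metformin, 6.04 ± 0.725 with FK506 and 8.86 ± 1.42 for the combination, which were rises of 1.88 ± 0.14, 1.79 ± 0.14 and 2.37 ± 0.14. Klrc2 (NKG2C), the activating partner, rose by 2.03, 2.48 and 2.73 in the same order, and Klrc3 (NKG2E) by 2.80, 2.83 and 2.71, but both were under the minimum FPKM in all Control samples and passed the filter only through the drug groups, where they were high. The interaction was -1.30 ± 0.18 for Klrc1, negative as for Klrd1. The ligand of these receptors, the nonclassical class I molecule Qa-1 (H2-T23), fell by 1.04 with FK506 and 0.93 with metformin. Klrc1 was higher with the combination than with FK506 (0.58 ± 0.12), and the ratio of Klrd1 to Klrc1 FPKM was 2.11 ± 0.535 in Control, 3.57 ± 0.507 with metformin, 3.31 ± 0.323 with FK506 and 2.1 ± 0.257 for both drugs.

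Of 27 other NK receptors and adaptors in the table, 15 were tested. Of these, 7 (Klra7, Klrc2, Klrc3, Klre1, Klrg1, Klrb1b and Klrb1f) were under the minimum FPKM in all Control samples, so that they entered the test only through drug groups where they were higher, as did 12% of all genes tested. Among the other 8, 3 rose and 5 fell with FK506, 6 rose and 2 fell with metformin, and 3 rose and 4 fell with the combination, beside 41.3% and 39.6%, 28.6% and 27.4%, and 42.1% and 39.6% of all genes tested. These shares keep the 1826 of 15197 genes under the minimum in Control. Without them, 4685 genes rose and 5978 fell with FK506, 3857 and 3987 with metformin, and 4827 and 5978 with the combination. Hcst (DAP10), through which NKG2D signals, rose by 1.03 with FK506, 0.63 with metformin and 1.34 with the combination. Klrb1b and Klrb1f, relatives of Klrb1c, rose by 6.62 ± 0.20 and 5.01 ± 0.19 with FK506 and by 7.42 ± 0.19 and 5.57 ± 0.19 with the combination, and reached the minimum FPKM only in those groups. The costimulatory receptors Slamf7, Crtam and Cd226 and the receptor Cd160 fell with FK506 (-1.52, -1.66, -1.12 and -0.95). With metformin Slamf7 fell (-1.94 ± 0.05), whereas Crtam (0.44 ± 0.068) and Cd160 (0.80 ± 0.15) rose. The adaptor Tyrobp (DAP12), which NK receptors share with receptors of myeloid cells, went from 0.458 ± 0.107 FPKM in Control to 91.4 ± 6.74 with FK506.

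Ligands of these receptors were also measured. Of 13 listed genes, 9 were in the table and 6 were tested, of which 3 rose and 2 fell with FK506 (41.3% and 39.6% of all genes tested) and with metformin (28.6% and 27.4%). Of the 3 that rose, Raet1d and H60b were under the minimum FPKM in all Control samples and were tested only through drug groups. H60b, a ligand of NKG2D, rose by 2.89 ± 0.38 with metformin and 1.97 ± 0.39 with FK506 (0.28 and not past the threshold after quantile normalization). Clec2i, a ligand of Klrb1 family receptors, rose by 1.05 and 1.12. Ulbp1, another ligand of NKG2D, fell by 0.53 with FK506 and was lower still with the combination (-0.87 ± 0.11 against FK506).

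The transcription factors and cytokine receptors of cytotoxic lymphocytes also went both ways. Of 18 tested, 6 rose and 8 fell with FK506, 5 rose and 13 fell with metformin, and 9 rose and 9 fell with the combination (medians 0.048, -0.43 and 0.092, against 0.024, 0.011 and 0.033). The shares of all genes that rose and fell were 41.3% and 39.6%, 28.6% and 27.4%, and 42.1% and 39.6% in the same order. T-bet (Tbx21), the T-box factor of Th1 and effector cells, went from 23.9 ± 0.891 FPKM (SD, n = 3) in Control to 17.6 ± 0.339 with metformin, 3.69 ± 0.595 with FK506 and 5.11 ± 0.391 for the combination. Eomes, the related factor of memory CD8 T cells and NK cells, went the other way, from 1.22 ± 0.197 to 5.01 ± 0.166, 13.6 ± 0.309 and 12 ± 0.388, which were rises of 2.00 ± 0.087, 3.25 ± 0.085 and 3.09 ± 0.085. Runx3 fell by 1.84 with FK506 and 1.2 with metformin, with an interaction of 1.17 ± 0.056, and it stood at 21.3 ± 1.63 FPKM with the combination beside 21.9 ± 1.00 with FK506. The IL-2 and IL-15 receptor chain Il2rb fell by 1.47 with FK506 and 1.16 with metformin. The IL-12 receptor chain Il12rb2 fell by 4.21 with FK506, and the IL-18 receptor chains Il18r1 and Il18rap rose by 4.34 and 5.02 with FK506 and by 2.38 and 3.09 with metformin, with Il18rap under the minimum FPKM in all Control samples.

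**Figure D4:**
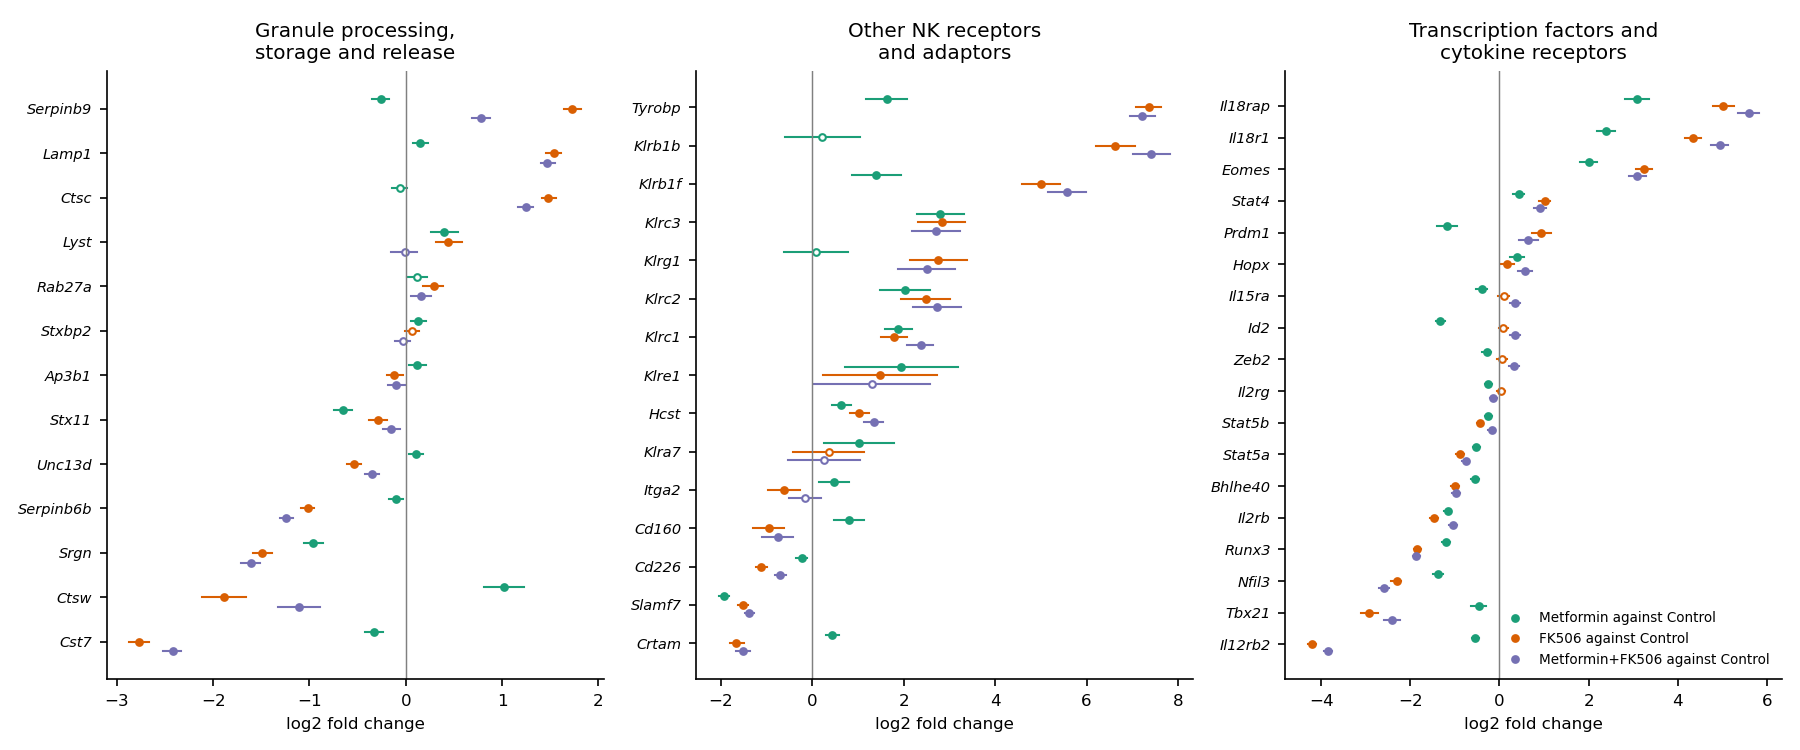
Log2 fold change against Control (horizontal axes) with 95% interval of 13 granule genes, 15 other NK receptors and adaptors, and 18 transcription factors and cytokine receptors, with metformin (green), FK506 (orange) and the combination (purple); filled points passed the test. Within each list genes lie on both sides of 0, with Klrb1b (6.62), Eomes (3.25) and Serpinb9 (1.73) right of 0 and Il12rb2 (-4.21), Tbx21 (-2.92) and Cst7 (-2.77) left of it with FK506.

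The genes whose pattern over the 12 samples was most like that of a member are given as a description (Pearson's r of log2(FPKM + 1), samples of 4 groups, no test). They were Mettl22 and Gm30892 for Gzmb (r of 0.996 each), Slfn9 (0.996) and Utp4 (0.995) for Gzma, Prelid1 and Ruvbl2 for Prf1 (0.993 each), Maged2 and Iars for Nkg7 (0.998 each), Rusc2 and Frmd4a for Gzmk (0.997 each) and Pja2 (0.989) and Plekha1 (0.988) for Klrd1. Such values are common where groups differ this much: 1040 genes had an r over 0.95 with Gzmb and 1843 with Gzmk, but only 95 with Klrd1 and 0 with Gzmc or Klrk1.

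The cell types in these cultures were looked at through marker genes, because the RNA came from whole cultures. Where a transcript is lower in such RNA, fewer cells that carry it and less RNA per cell cannot be told apart. The Cd4 transcript was present throughout, at 140 ± 2.45 FPKM (SD, n = 3) in Control, 190 ± 2.27 with metformin, 199 ± 3.81 with FK506 and 242 ± 13.9 for the combination, and the summed FPKM of 10 T cell markers was 2624 to 2685, 3030 to 3108, 3024 to 3130 and 3273 to 3366. Markers of other cells moved with FK506. The sum of 10 B cell markers was 164 to 187 in Control, 219 to 251 with metformin, 3075 to 3192 with FK506 and 1854 to 2059 with the combination, and all 10 rose with FK506, beside 41.3% of all genes. The sum of 10 myeloid markers was 4.42 to 4.57, 8.79 to 10.1, 1255 to 1299 and 801 to 915, with Adgre1, C1qa and Fcgr1 at 0 in all Control samples. Lyz2 made up most of this sum with FK506 (mean 981) and with the combination (mean 539). Between these groups Lyz2 fell and Cd68 rose, beside 15% and 15.6% of all genes tested, and the other 7 tested did not pass the test. Of the 9 that were tested, 8 (all but Cd68) reached the minimum FPKM only in the groups with FK506.

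Markers of NK cells, CD8 T cells, γδ T cells and some other cells were summed in the same way. The sum of 7 NK cell markers outside the members was 1.31 to 1.57 FPKM in Control, 5.40 to 6.20 with metformin, 13.9 to 14.6 with FK506 and 12.3 to 13.5 with the combination, most of it Eomes, while S1pr5 was at 0 in all samples with FK506, Klra8 in those with metformin alone and Klra4 and Klra9 in Control. The CD8 T cell markers Cd8a and Cd8b1 summed to 9.01 to 9.52, 12.9 to 13.2, 6.84 to 7.35 and 6.93 to 8.64. The sum of 4 γδ T cell markers was 1.63 to 2.54 in Control, 2.57 to 3.08 with metformin, 14.7 to 18.2 with FK506 and 18.4 to 19.5 with the combination. Trdc stood at 1.23 to 1.79 FPKM in Control, 1.53 to 2.06 with metformin, 4.77 to 6.21 with FK506 and 4.20 to 5.92 with the combination, and Tcrg-C1 reached the minimum FPKM only in the groups with FK506. Mast cell and basophil markers (6 genes) summed to 3.22 to 6.13 with FK506, of which Mcpt8 was 1.73 to 3.89 and at 0 in the other groups, where the sum was at most 1.56. Plasmacytoid dendritic cell markers (4 genes) summed to 9.93 to 11.6 with metformin and at most 2.70 elsewhere. Cox6a2 alone made up that sum with metformin (10.8 of 10.8 on average), with Siglech at 0.00783, Ccr9 at 0.0026 and Klk1 at 0, while Ccr9 was at 0 in Control, 0.594 with FK506 and 1.05 with the combination. The part of these cells in the results was not tested. Scaled to the summed counts of the 10 T cell markers in place of all genes, Gzmb fell by 5.51 with FK506, Prf1 by 2.15 and Nkg7 by 2.83, and Gzmk (4.24) and Klrd1 (2.59) rose. These 10 markers moved themselves with FK506: 5 rose and 5 fell, beside 41.3% and 39.6% of all genes tested. Trac went from a mean of 315 FPKM in Control to 577 with FK506, and Thy1 from 152 to 68.4.

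**Figure D5:**
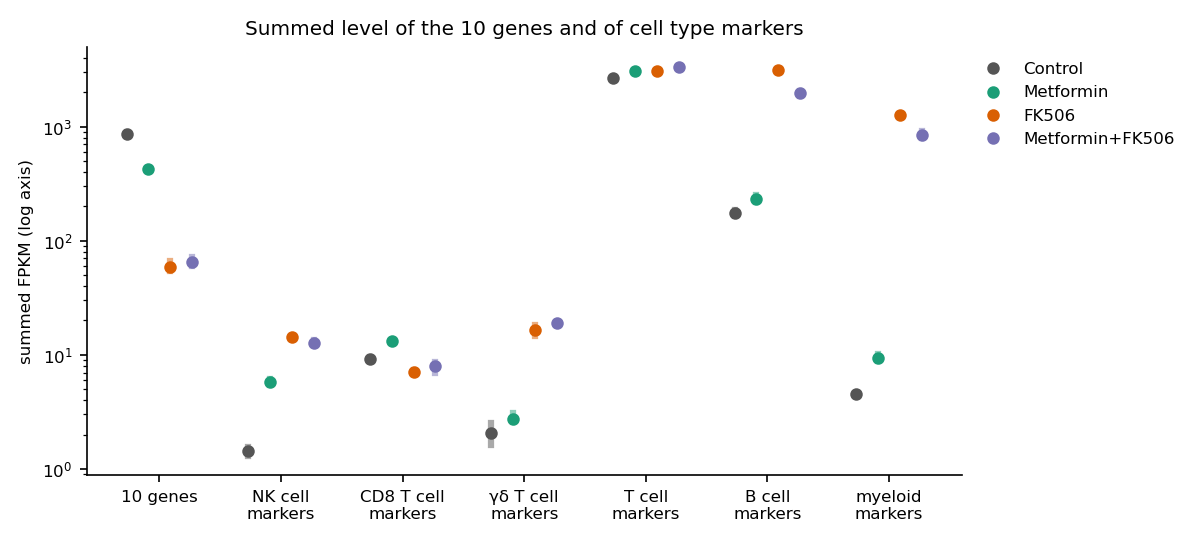
Summed FPKM (log axis) of the 10 genes described here and of 6 marker lists in the 4 groups; points are means and vertical bars run from the lowest to the highest of 3 samples. The 10 genes sum to 838 to 893 in Control, most of it Gzmb (mean 753), and to 54.4 to 66.0 with FK506. Of the 10, Gzmk and Klrd1 rose with FK506. The sum of the T cell markers stays between 2624 and 3366, and the B cell and myeloid markers stand higher in both groups with FK506.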

How the data were processed

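RNA sequencing of 12 samples of splenic CD4+ T cells (4 groups of 3, assigned from the sample labels) was analysed. The authors deposited read counts per gene without normalization and FPKM values, which scale counts to library size and transcript length. Another 12 columns (TPM) were not used. The submitters' processing notes name bcl2fastq 2.20.0, Trimmomatic, HISAT2 2.1.0, StringTie 2.1.3b and the build mm10, without their roles. The treatment of reads shared between genes and of strand in counting is not given in the sources used here. Columns named Tho 1 to 3 were taken as the Control samples described as Th0 1 to 3.

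Between 43402632 and 64290105 reads were counted per sample. Counts were fitted with edgeR 4.0.16 (TMM scaling, quasi-likelihood test, all 4 groups in 1 fit, R 4.3.3), tested on simulated data first. Genes needed an FPKM of 0.5 in 3 or more samples. An adjusted p under 0.05 counted as changed, and 3 counts was the floor. DESeq2 1.42.0, limma 3.58.1, other scalings and filters, and leaving out each sample were alternatives. The scaling to T cell markers was chosen after seeing the data. The genes named were the members, genes of the lists, and the 2 genes most like each tested member. The members and lists were chosen with earlier results of these data known.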

Additional observations from a re-analysis of the deposited data

Results flagged for a closer look

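For 6 of the 8 genes tested, the effect of metformin differed with and without FK506, by edgeR's test of the interaction itself (effect with FK506 minus effect without, log2 scale, Benjamini-Hochberg adjusted over all genes tested), beside 22.5% of all genes that were higher and 24% that were lower. The values were 2.19 for Gzma (adjusted p = 0.00263), 1.30 for Gzmb (adjusted p = 0.000152), 1.33 for Gzmc (adjusted p = 0.0273), 1.28 for Gzmk (adjusted p = 0.0291), 1.33 for Prf1 (adjusted p = 3.74e-05) and -2.77 for Klrd1 (adjusted p = 8.76e-09). In Gzma, Gzmb and Prf1, FK506 alone gave lower levels than metformin alone, and the combination against FK506 did not pass the test (-0.16, -0.10 and -0.016). In Klrd1, both drugs alone raised the level, and the combination against FK506 was -0.14. That of Gzma was 1.37 without Metformin+FK506 replicate 1. The interactions of Gzmc and Gzmk missed the threshold when single samples were left out.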

How the results depend on the processing

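Of 1096 values of the 48 log2 fold changes under the alternatives, 1018 kept their direction and their side of the threshold, 56 no longer passed the test, 2 newly passed it and 20 changed sign. In FK506 against Control, 7 of the 8 genes tested, all but Gzmc, kept both under every other scaling, tool, filter, block and left-out sample run. Gzmc missed the threshold there with library totals only, log2(FPKM + 1) and log2(FPKM + 0.1), T cell scaling, the replicate block and without Control replicate 3 or FK506 replicate 3.

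Requiring a log2 fold change of at least 1 as well left 6 of 8 calls with FK506 (Gzmc and Klrk1 were lost), 4 of 7 with metformin, 4 of 7 for the combination against metformin, and 0 of 3 for the combination against FK506 (edgeR, 3 at an unadjusted p under 0.05, and 3 with DESeq2). The values that changed sign were not called in the fit reported. For Nkg7 the interaction was -0.014 with library totals only, -0.029 and -0.0092 with limma on log2(FPKM + 1) and log2(FPKM + 0.1), -0.07 after quantile normalization and -0.03 with T cell scaling, and -0.06 to 0.19 when samples were left out. For Klrk1 the combination against Control was -0.036, -0.042 and -0.30 on the 3 FPKM scales. Leaving out samples, the combination against FK506 ran from -0.99 to 0.17 for Gzma, -0.38 to 0.082 for Gzmb and -0.23 to 0.074 for Prf1, and the combination against Control from -0.64 to 0.018 for Gzmc. The cause was not tested.

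With library totals only, the median of all genes was 0.25 with FK506 and with the combination and 0.21 for the combination against metformin, and 62.1%, 61.8% and 62.3% of the calls were higher rather than 51.1%, 51.6% and 51.6%. With T cell scaling it was 0.18 with FK506 and -0.15 for the combination against FK506, where 15.9% rather than 50.9% were higher, and with metformin 38.8% rather than 51.1% were higher.

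Same-numbered samples did not deviate together (r from -0.0713 to 0.05), so the numbers were not taken as pairs. With the replicate block, 7 genes were called in FK506 against Control in place of 8, 6 in place of 7 in metformin against Control, and 5 in place of 6 for the interaction, Gzmc being lost each time, and no other call of the 8 genes changed. Limits: 3 samples a group allow an exact p of 0.1 at best. Ncr1, Klrb1c, Gzma with FK506 and Gzmk without it (6 to 16 reads in Control, 6 to 13 with metformin) rest on few reads.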
